A study of Homo sapiens with 6 samples.

Results

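The transcripts of 42 genes that carry a cell through mitosis were followed in HCT116 cells, a human colon cancer cell line, after knockdown of IGF2BP3, an RNA-binding protein that reads N6-methyladenosine on mRNA. The genes were taken by symbol from a list that covers CDK1 and its cyclins, the mitotic kinases, the spindle checkpoint, the kinetochore, the spindle and cytokinesis, and they make up 42 of the 62710 genes in the deposited tables. No cutoff on level or fold change was used to choose them, although earlier results of these data were known when the list was drawn up. All 42 were expressed highly enough to be tested. The deposited RNA-seq holds 3 libraries from cells with a scrambled control shRNA (sh-NC) and 3 from cells with an shRNA against IGF2BP3 (sh-IGF2BP3). Both cell lines had been infected with lentivirus and selected with puromycin, each group rests on 1 shRNA sequence, and the labels name no treatment beyond the knockdown. The labels do not say whether the 3 libraries of a group came from separate cultures, so the p-values measure only the spread between these libraries, which may be technical. The comparison asks which mitosis transcripts differ when IGF2BP3 is lowered.

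Entry into mitosis is driven by CDK1 bound to cyclin B, and the kinases PLK1 and Aurora A and B then build the spindle and correct its attachments to the chromosomes. The spindle checkpoint holds the cell until every kinetochore is attached, after which CDC20 switches on the anaphase promoting complex (APC/C) and the cell divides. The mRNAs of these proteins are made mainly in G2 and M phase, and many of their promoters carry 2 short elements, the cell cycle genes homology region (CHR) and the CCAAT box, so the genes often move together with the share of dividing cells.

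The promoter letters are shown first, since 2 motifs that the choice of the genes did not use were common among the members. RefSeq promoters, taken from 250 bases before to 50 after the start on GRCh38.p14, were found for 36 members, and AURKA, BIRC5, BUB3, TPX2, TTK and UBE2C had no entry. The CHR letters TTTGAA or TTTAAA, searched on both strands, occurred in 31 of the 36 promoters (86.1%), against 17.01% of the promoters of 16481 tested genes and 23.99% of all 35116 promoters in the table. Within 50 bases on either side of the start they occurred in 26 members (72.2%), against 4.98% of tested genes. The letters CCAAT occurred on either strand in 28 members (77.8%), against 34.5% of tested genes, and at least 2 copies occurred in 20 members (55.6%), against 12.1%. Both motifs stood together in 25 members (69.4%), against 6.61% of tested genes. A match describes the letters only, and TTTAAA is its own reverse complement and so counts once. Promoters of members from both ends of the fold change range follow, each written 5′ to 3′ on the strand of the gene, with the motif letters of either strand in capitals (ATTGG is CCAAT and TTCAAA is TTTGAA read on the other strand). CKS2 lies at chr9:89310945-89311244 on the plus strand, CDC20 at chr1:43358731-43359030 on the plus strand, CENPE at chr4:103198294-103198593 on the minus strand and ASPM at chr1:197146620-197146919 on the minus strand.
CKS2: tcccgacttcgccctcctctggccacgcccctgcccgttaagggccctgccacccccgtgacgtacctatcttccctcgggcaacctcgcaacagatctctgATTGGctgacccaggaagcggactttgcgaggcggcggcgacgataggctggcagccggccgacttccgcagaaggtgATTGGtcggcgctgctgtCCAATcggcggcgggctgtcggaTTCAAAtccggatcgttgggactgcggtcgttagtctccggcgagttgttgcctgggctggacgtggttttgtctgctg
CDC20: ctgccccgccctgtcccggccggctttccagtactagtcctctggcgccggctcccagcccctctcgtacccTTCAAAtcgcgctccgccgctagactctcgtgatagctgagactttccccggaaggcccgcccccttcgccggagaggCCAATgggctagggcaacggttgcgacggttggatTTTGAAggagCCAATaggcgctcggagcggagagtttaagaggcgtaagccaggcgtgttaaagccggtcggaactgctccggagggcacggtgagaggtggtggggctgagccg
CENPE: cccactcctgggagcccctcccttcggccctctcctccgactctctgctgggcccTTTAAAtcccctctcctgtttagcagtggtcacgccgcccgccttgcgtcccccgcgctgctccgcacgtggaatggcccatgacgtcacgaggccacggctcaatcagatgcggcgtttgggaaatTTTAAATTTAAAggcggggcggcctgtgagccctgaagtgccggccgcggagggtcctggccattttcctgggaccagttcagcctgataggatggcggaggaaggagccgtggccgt
ASPM: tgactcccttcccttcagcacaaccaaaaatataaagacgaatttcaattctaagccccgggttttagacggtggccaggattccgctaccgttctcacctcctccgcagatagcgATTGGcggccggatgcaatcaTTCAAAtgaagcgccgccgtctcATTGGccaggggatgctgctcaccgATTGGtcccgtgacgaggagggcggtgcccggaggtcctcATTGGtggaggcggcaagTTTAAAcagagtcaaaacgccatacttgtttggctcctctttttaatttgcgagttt
CKS2 and CDC20, which were among the members with higher counts after knockdown, and ASPM, which was among the lower ones, each held both motifs. CENPE, the other lower member shown, held 3 CHR matches and no CCAAT. The letters thus occurred at both ends of the range of fold changes.

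The knockdown itself was modest at the level of counts. The shRNA target, ggctcagggaagaatttat, spans the junction of exons 12 and 13 in the coding sequence of IGF2BP3 (chr7:23313636-23317639, minus strand, GRCh38) and also matches 1 transcript of the pseudogene AC092447.1, while the control sequence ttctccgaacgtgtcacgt matched no GENCODE 29 transcript. Levels are given as CPM, that is, counts scaled by each library's total and also by its normalization factor (TMM). This factor ran from 0.949 in sh-IGF2BP3 2 to 1.096 in sh-NC 3. IGF2BP3 stood at 90.3, 84.1 and 70.3 CPM in sh-NC, always given in the order of libraries 1, 2 and 3. In sh-IGF2BP3 it stood at 60.2, 52.3 and 55.8 CPM. The groups did not overlap, and the means were 81.6 ± 10.2 and 56.1 ± 3.98 (SD, n = 3), a log2 fold change of -0.54 (SE 0.18, adjusted p = 0.126, edgeR quasi-likelihood test with Benjamini-Hochberg adjustment). With each library's trend with GC content and gene length removed, the IGF2BP3 log2 fold change was -0.22 and the groups overlapped. Totals were 17906908 to 23576469 counts in sh-NC and 16146718 to 18202601 in sh-IGF2BP3, and replicates of one group differed by far more than counting noise (chi-square per degree of freedom of at least 16.6). The 6 epithelial markers examined were present in every library, with summed FPKM of 560 to 878 in sh-NC and 735 to 970 in sh-IGF2BP3. Of 8 markers of blood, endothelial, fibroblast and liver cells, COL1A2 was listed at 0 in every library, and the summed FPKM of 3.20 to 6.17 in sh-NC and 3.44 to 6.69 in sh-IGF2BP3 was almost all COL1A1. Mitochondrial genes took 6.12%, 7.32% and 7.76% of counts in sh-NC against 5.24%, 5.47% and 5.89% in sh-IGF2BP3, so that this share separated the groups. The part of the markers and of the mitochondrial share in the results was not tested.

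The mitosis genes did not move as one block. BIRC5, CKS2, UBE2C, INCENP, CDC20, PRC1, PTTG1, AURKB and PLK1 had higher counts after knockdown at an unadjusted p under 0.05, ASPM and CENPE had lower counts, and 31 members did not pass. The 9 higher members were 21.4% of the list, beside 13.6% of the 16753 genes tested, and the 2 lower ones were 4.76%, beside 8.54%. No member was a differentially expressed gene (DEG, fold change above 1.5 and adjusted p under 0.05) in edgeR, and neither was any other gene (0% of those tested), and the lowest adjusted p of a member was 0.105. DESeq2, the second count model, called 1 member, BIRC5 (adjusted p = 0.0320), of 40 with an adjusted p, beside 4.55% of its 12205 genes called higher and 1.23% called lower. Log2 fold changes of the members ran from -0.65 to 0.85 with a median of 0.074, beside -0.014 over all genes. In all, 25 members (59.5%) were above 0 and 17 below, beside 48.99% of all genes above 0. The median turned below 0 without sh-NC 3 (-0.079) and in limma on log2(FPKM + 1) (-0.053), so its direction rests on the library and the tool. In 9 members every sh-IGF2BP3 library stood above every sh-NC library in CPM (21.4%, beside 13.2% of all genes) and in 2 every one stood below (4.76%, beside 11%). Of these, PLK1 and CDC25B overlapped between the groups in FPKM. For a single gene with 3 libraries against 3, the exact two-sided permutation test cannot go below 0.1, and it gave 0.1 for these 11 members. In bulk RNA, fewer dividing cells and less of an mRNA in each dividing cell cannot be told apart.

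**Figure D1:**
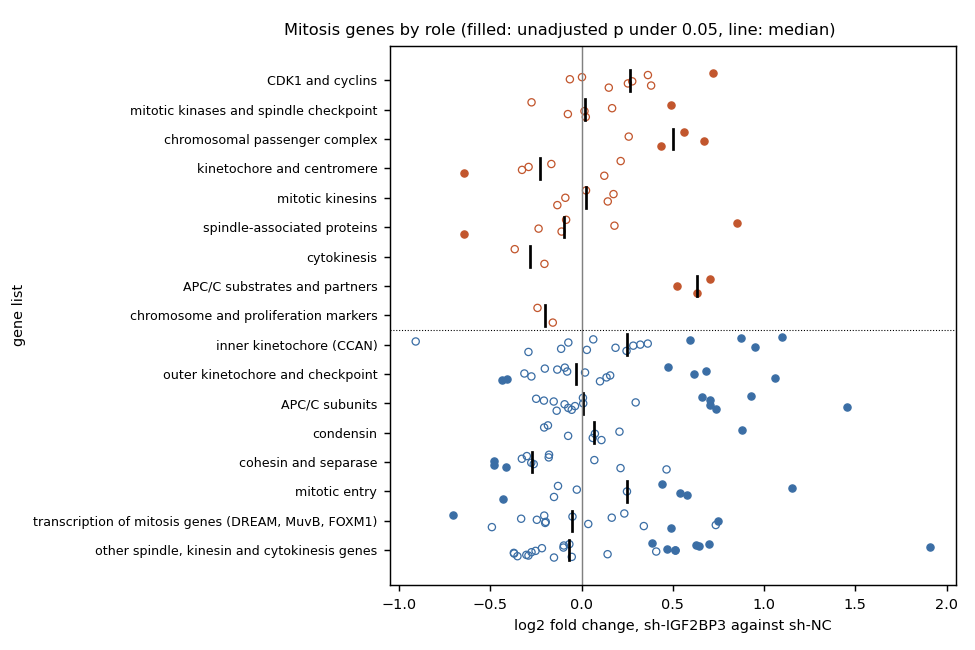
Log2 fold change (x axis, sh-IGF2BP3 against sh-NC, edgeR) of each mitosis gene, by role (y axis), with the 42 members above the dotted line in orange and 115 further mitosis genes below it in blue. Filled points had an unadjusted p under 0.05 and the black line is the median of a role. The members of the chromosomal passenger complex and the APC/C partners lie at 0.26 to 0.71, and those of cytokinesis at -0.37 and -0.20.

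The role listed as partners and substrates of the APC/C had the highest median of the 9 roles, 0.63. Its 3 members, UBE2C, CDC20 and PTTG1, were all higher at an unadjusted p under 0.05, beside 13.6% of all genes tested. The role is a list of 3, and other members on which the APC/C acts are counted under other roles. UBE2C is the E2 enzyme that starts ubiquitin chains on APC/C substrates (ENSG00000175063, chr20:45812576-45816957). Its CPM were 60.9, 46.5 and 37.1 in sh-NC against 77.6, 94.6 and 63.4 in sh-IGF2BP3. The groups did not overlap, although sh-NC 1 and sh-IGF2BP3 3 lay close together. The log2 fold change of UBE2C was 0.71 (SE 0.22, adjusted p = 0.117, edgeR quasi-likelihood test, as for all adjusted p-values given here unless DESeq2 is named). CDC20, the activator that brings substrates to the APC/C, had 243, 172 and 112 CPM in sh-NC and 266, 301 and 248 in sh-IGF2BP3. The sh-NC libraries spread more than 2-fold, from 112 in sh-NC 3 to 243 in sh-NC 1, which lay just under the lowest sh-IGF2BP3 library. The log2 fold change of CDC20 was 0.63 (SE 0.24, adjusted p = 0.153). PTTG1, the securin that APC/C destroys to free separase, had 37.6, 41.4 and 30.2 CPM in sh-NC and 49.6, 65.99 and 41.3 in sh-IGF2BP3. Its groups overlapped at their edges, with sh-NC 2 just above sh-IGF2BP3 3, and its log2 fold change was 0.52 (SE 0.21, adjusted p = 0.172). The copies PTTG2 and PTTG3P had at most 3 counts in a library and CDC20P1 at most 6, while UBE2CP5 reached 37.

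The chromosomal passenger complex, which corrects wrong attachments at the centromere and later works at the midbody, was above sh-NC in 3 of its 4 members at an unadjusted p under 0.05. Over all genes tested, 13.6% were higher at that p. BIRC5 (survivin, ENSG00000089685, chr17:78214186-78225636) targets the complex to the centromere. It had 140, 153 and 110 CPM in sh-NC and 202, 230 and 211 in sh-IGF2BP3. The lowest sh-IGF2BP3 library stood well above the highest sh-NC library. The means of BIRC5 were 135 ± 22.0 and 214 ± 14.6 (SD, n = 3), and the log2 fold change was 0.67 (SE 0.19, adjusted p = 0.105). INCENP, the scaffold of the complex, had 167, 135 and 107 CPM in sh-NC and 222, 200 and 183 in sh-IGF2BP3, a log2 fold change of 0.56 (SE 0.20, adjusted p = 0.138). AURKB, its kinase, had 61.2, 56.1 and 40.9 CPM against 75.9, 74.2 and 63.6, a log2 fold change of 0.43 (SE 0.20, adjusted p = 0.213). In both genes the groups were separate, and sh-NC 1 and sh-IGF2BP3 3 lay nearest each other. CDCA8 (borealin), the fourth subunit, ranged from 56.9 to 109 CPM in sh-NC and from 96.7 to 105 in sh-IGF2BP3, so that its groups overlapped (log2 fold change 0.26). These are GC-rich transcripts, with a median GC content of 53.9%, and with each library's trend with GC content and gene length removed the median of the complex was 0.18 in place of 0.50. Only BIRC5 of the 4 then had an unadjusted p under 0.05, beside 6.86% of all genes higher in that fit. AURKB was at 0.15 and INCENP at 0.20.

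Among CDK1, the cyclins and their partners, CKS2 alone of 8 had an unadjusted p under 0.05. It was higher, beside 13.6% of all genes tested. CKS2 is a small subunit of the CDK1 complex (ENSG00000123975, chr9:89311195-89316703). It had 60.2, 51.3 and 43.3 CPM in sh-NC and 73.8, 114 and 67.0 in sh-IGF2BP3. The groups were separate, and sh-IGF2BP3 2 stood far above the other libraries. CKS2 had a log2 fold change of 0.72 (SE 0.22, adjusted p = 0.117). CKS1B, its paralog, had a log2 fold change of 0.36 (SE 0.20, adjusted p = 0.300), with sh-NC 1 (72.4 CPM) above sh-IGF2BP3 3 (63.3 CPM). CCNB1, the cyclin that activates CDK1 at mitotic entry, had 262, 231 and 155 CPM in sh-NC and 236, 322 and 286 in sh-IGF2BP3. It overlapped between the groups, with a log2 fold change of 0.38 (SE 0.22, adjusted p = 0.313). CDK1 itself had 106, 109 and 90.2 CPM in sh-NC and 85.0, 119 and 102 in sh-IGF2BP3. The lowest and the highest CDK1 library were both sh-IGF2BP3. Its log2 fold change was 0.00 (SE 0.19, adjusted p = 0.997), with a 95% interval from -0.40 to 0.40 that leaves room for a difference in either direction. CCNA2 (cyclin A2) had a log2 fold change of 0.15 (SE 0.21, adjusted p = 0.705). CCNB2, and the phosphatases CDC25B and CDC25C that switch CDK1 on, lay at 0.25, 0.28 and -0.06, and in CDC25B (SE 0.18, adjusted p = 0.380) the groups did not overlap.

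The mitotic kinases and checkpoint genes were split. PLK1, which acts from centrosome maturation to cytokinesis, had 169, 126 and 86.2 CPM in sh-NC and 186, 170 and 177 in sh-IGF2BP3. The groups did not overlap, but sh-NC 1 came within 2 CPM of the lowest sh-IGF2BP3 library, and sh-NC 3 was far below. PLK1 had a log2 fold change of 0.49 (SE 0.22, adjusted p = 0.214). AURKA (Aurora A, the centrosomal kinase) had 111, 103 and 78.4 CPM in sh-NC and 77.5, 103 and 116 in sh-IGF2BP3, so that one library of each group was low. Its log2 fold change was 0.02 (SE 0.20, adjusted p = 0.957). BUB1 and BUB1B, checkpoint proteins at the kinetochore, had log2 fold changes of -0.08 (SE 0.20, adjusted p = 0.846) and 0.02 (SE 0.20, adjusted p = 0.972). BUB3, their partner, and TTK, the kinase at the top of the checkpoint, lay at 0.17 and -0.28 and overlapped between groups.

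**Figure D2:**
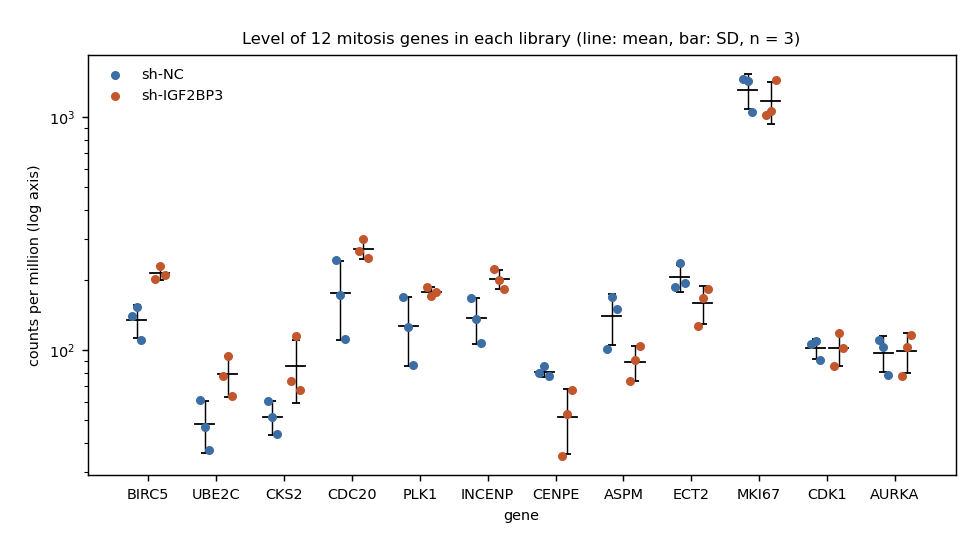
CPM (y axis, log scale) of 12 members (x axis) in each sh-NC library (blue) and each sh-IGF2BP3 library (orange), with libraries 1, 2 and 3 from left to right within a group, the mean as a line and the SD as a bar (n = 3). BIRC5 lies at 110 to 153 CPM in sh-NC and 202 to 230 in sh-IGF2BP3, whereas MKI67, CDK1 and AURKA overlap.

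Of the 6 kinetochore and centromere members, CENPE alone had an unadjusted p under 0.05, and it was lower, beside 8.54% of all genes tested. CENPE, the kinesin that pulls chromosomes along the spindle to the metaphase plate (ENSG00000138778, chr4:103105349-103198445), had 79.8, 85.4 and 77.2 CPM in sh-NC and 35.0, 53.1 and 67.0 in sh-IGF2BP3. All 3 sh-IGF2BP3 libraries lay beneath the sh-NC range, and the sh-IGF2BP3 libraries themselves spread from 35.0 to 67.0. The log2 fold change of CENPE was -0.64 (SE 0.22, adjusted p = 0.130). CENPF, a large protein of the outer kinetochore, had 495, 513 and 439 CPM in sh-NC and 291, 387 and 475 in sh-IGF2BP3. Its groups overlapped through sh-IGF2BP3 3, and the log2 fold change was -0.33 (SE 0.21, adjusted p = 0.361). NDC80, NUF2 and SPC25, subunits of the complex that binds microtubules, lay at -0.29, -0.17 and 0.21, and CENPA, the centromeric histone, at 0.12, all 4 overlapping between groups. CENPA shares 46.1% of its span with SLC35F6 on the same strand, and NUF2 and SPC25 lie partly opposite RGS5 and NOSTRIN, so that reads in those stretches cannot be placed by position alone if strand was not used in counting.

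Of the spindle-associated proteins, ASPM, which focuses microtubules at the spindle poles (ENSG00000066279, chr1:197084121-197146694), had 101, 168 and 149 CPM in sh-NC and 73.2, 90.4 and 104 in sh-IGF2BP3. Its groups overlapped, since sh-NC 1 was below sh-IGF2BP3 3. ASPM had a log2 fold change of -0.65 (SE 0.22, adjusted p = 0.126). PRC1, which bundles the microtubules of the central spindle, had only 2.43, 1.82 and 2.20 CPM in sh-NC and 4.40, 3.92 and 3.29 in sh-IGF2BP3. The groups were separate and the log2 fold change of 0.85 (SE 0.33, adjusted p = 0.154) was the highest of the 42, but 99.5% of PRC1 lies inside ENSG00000284946, a coding gene on the same strand with 148, 247 and 178 counts in sh-NC and 92, 71 and 168 in sh-IGF2BP3. A read in that stretch fits both genes, and how such reads were counted is not given in the sources used here. NUSAP1, at 0.85 to 1.60 CPM the lowest member, lies 99.9% inside ENSG00000285920, which had 0 counts in every library, and its log2 fold change was 0.18. TPX2, DLGAP5 and HMMR, 3 spindle assembly factors, lay at -0.09, -0.11 and -0.24 and overlapped.

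Neither the mitotic kinesins nor the proliferation markers passed in either direction. The 5 kinesins KIF2C, KIF20A, KIF4A, KIF23 and KIF11 lay between -0.13 and 0.17, and all overlapped between the groups. KIF11 (Eg5), which separates the spindle poles, had a log2 fold change of -0.13 (SE 0.20, adjusted p = 0.718). The cytokinesis genes ECT2 and ANLN lay at -0.37 (SE 0.20, adjusted p = 0.287 for ECT2) and -0.20. ECT2, the exchange factor that starts furrowing, had 186, 236 and 193 CPM in sh-NC and 127, 167 and 183 in sh-IGF2BP3, and the groups did not overlap, by a gap of under 3 CPM. MKI67, which encodes the proliferation marker Ki-67, had 1457, 1428 and 1053 CPM in sh-NC and 1018, 1060 and 1450 in sh-IGF2BP3. The sh-NC 3 library had the level of the lower sh-IGF2BP3 libraries, and sh-IGF2BP3 3 that of the higher sh-NC libraries. The log2 fold change of MKI67 was -0.16 (SE 0.21, adjusted p = 0.686), with a 95% interval from -0.61 to 0.29. TOP2A, the topoisomerase that untangles sister chromatids, had 329, 403 and 345 CPM in sh-NC and 230, 318 and 362 in sh-IGF2BP3, a log2 fold change of -0.24 (SE 0.21, adjusted p = 0.500).

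Per unit of length, TPX2, MKI67, CCNB1, CDC20 and CKS2 were the most abundant members in sh-NC, with mean FPKM of 107 ± 15.3, 104 ± 12.9, 90.2 ± 17.9, 87.97 ± 27.5 and 85.4 ± 8.42 (SD, n = 3). TPX2 and MKI67, and likewise CCNB1, CDC20 and CKS2, lay within their spread of each other, while TPX2 and MKI67 were each above CKS2 in all 3 sh-NC libraries. The median member had 28.8 FPKM in sh-NC, and PRC1 (0.398 FPKM) and NUSAP1 (0.307 FPKM) were the only members under 1, both inside another coding gene. In sh-IGF2BP3, CKS2 and CDC20 had the highest means, 134 ± 37.3 and 131 ± 11.3 FPKM, ahead of CCNB1 with 112 ± 14.1. The CKS2 mean leaned on sh-IGF2BP3 2 (120, 176 and 105 FPKM in libraries 1, 2 and 3). In sh-IGF2BP3 3, CKS2 lay below CCNB1 (114), TPX2 (113) and MKI67 (109).

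Within each group, the mitosis genes differed between libraries. The median deviation of the 42 members (log2 CPM less each gene's own mean over all 6) stood at 0.08, 0.12 and -0.28 in sh-NC against -0.17, 0.08 and 0.15 in sh-IGF2BP3. One library of each group was thus low and the groups overlapped. Of the 42 members, 38 had their lowest CPM in sh-NC 3 (21 members) or sh-IGF2BP3 1 (17 members), and 36 lay below their own mean in sh-NC 3. The members took 0.683%, 0.729% and 0.599% of all counts in sh-NC and 0.591%, 0.637% and 0.711% in sh-IGF2BP3. The 115 further mitosis genes had median deviations of 0.07, 0.09 and -0.18 in sh-NC and -0.16, 0.09 and 0.10 in sh-IGF2BP3, with the low values in the same libraries.

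**Figure D3:**
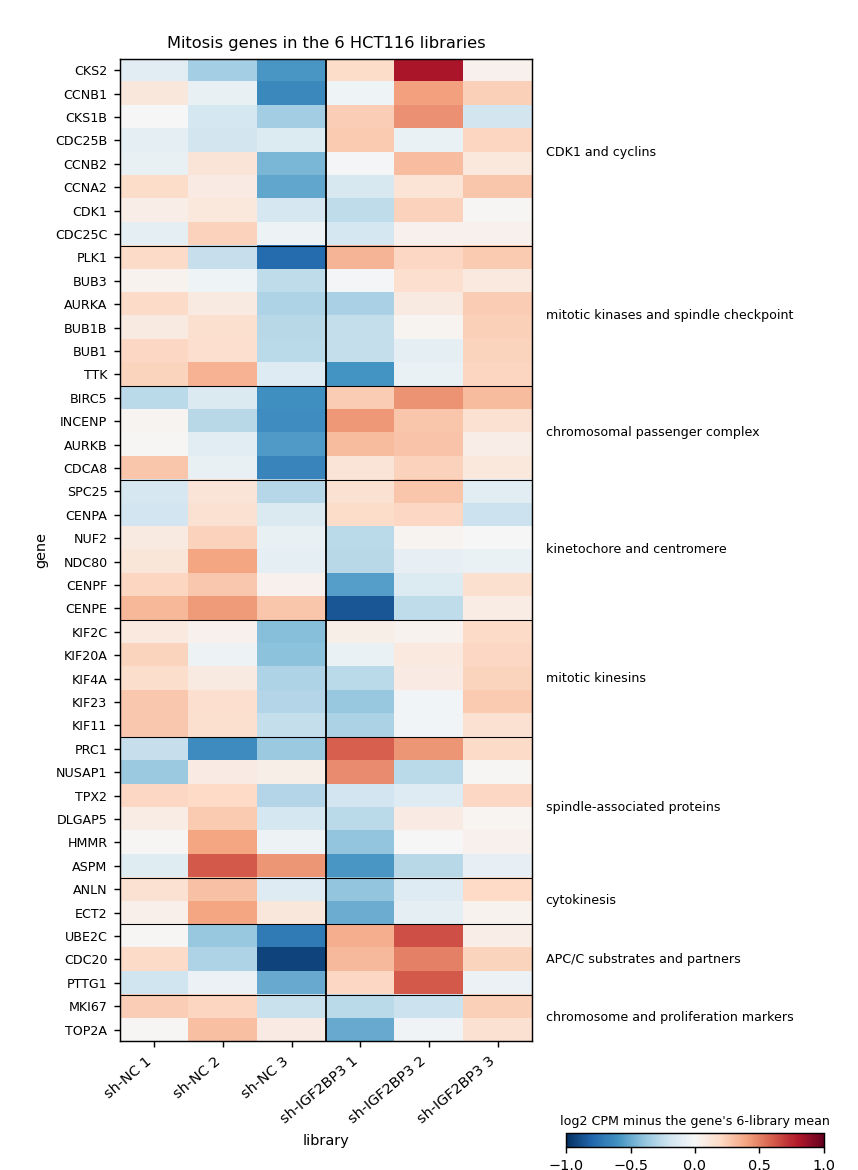
Deviation in log2 CPM from the gene's mean over the 6 libraries (colour, blue low and red high) for the 42 members (rows, ordered by role and then fold change) in the 6 libraries (columns). The median deviation is -0.28 in sh-NC 3 and -0.17 in sh-IGF2BP3 1, and 0.08 to 0.15 in the other 4 libraries.

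The fold changes of the members followed the base composition and length of their transcripts. GC content of the longest transcript ran from 35.3% (CENPE) to 59.6% (INCENP), with a median of 43.2%, beside 48.7% over all genes tested. The 10 members above 48.7% all had log2 fold changes above 0, with a median of 0.50, and 7 of them had an unadjusted p under 0.05. Over all genes tested, 48.99% lay above 0 and 13.6% were higher at that p. The shares among all genes above 48.7% GC are not given here, so these counts are not read as particular to the members. Of the 32 members below it, 15 lay above 0 and 17 below, with a median of -0.07. Across the 42 members Spearman's rho between log2 fold change and GC content was 0.735, beside 0.611 across 16236 genes, and between log2 fold change and gene length it was -0.586. Genes of the same 6 libraries are not independent points, so these are descriptions. The GC trend also separated the groups: the eighth of all genes richest in GC had median deviations of -0.11, -0.36 and -0.32 in sh-NC and 0.58, 0.30 and -0.04 in sh-IGF2BP3. The eighth poorest in GC had 0.05, 0.23 and 0.24 in sh-NC and -0.38, -0.08 and -0.02 in sh-IGF2BP3. The members above the median GC content had 0.02, -0.16 and -0.62 in sh-NC and 0.29, 0.28 and 0.17 in sh-IGF2BP3. The cause of the trend was not tested, and in these libraries it cannot be told apart from the knockdown.

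**Figure D4:**
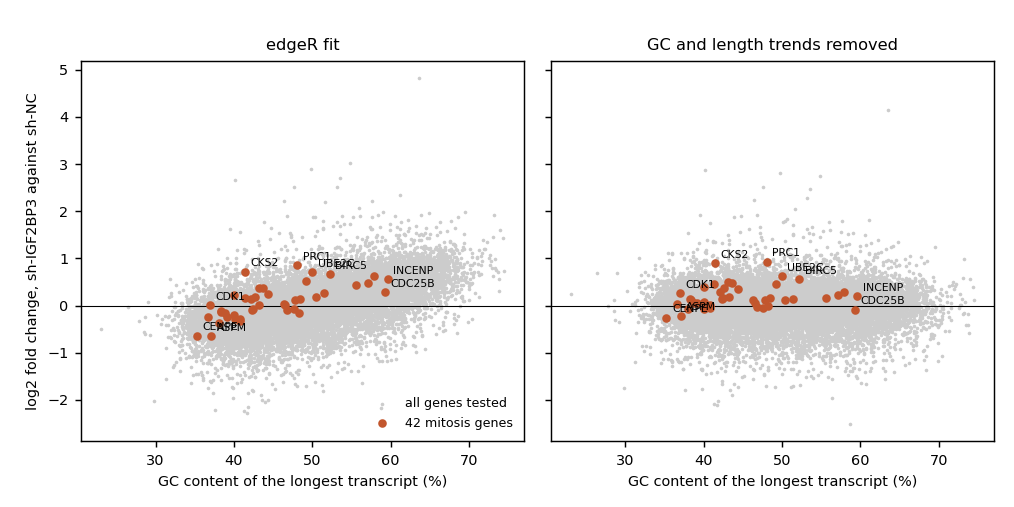
Log2 fold change (y axis, sh-IGF2BP3 against sh-NC) against GC content of the longest transcript in percent (x axis) for all genes tested (grey) and the 42 members (orange), in the edgeR fit (left) and with each library's GC and length trends removed (right). Members richer in GC lie higher on the left (Spearman's rho 0.735) and less so on the right (0.308).

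Since the GC trend separated the groups, taking it out may also take out part of a difference between them. With each library's trend with GC content and gene length removed, neither lower member kept an unadjusted p under 0.05, and 8 members were higher at that p. These were BIRC5, BUB3, CCNB1, CKS1B, CKS2, PRC1, PTTG1 and UBE2C, 19% of the list beside 6.86% of all genes, and 0 were lower beside 3.59%. The lowest adjusted p of a member was then 0.415 in edgeR. In 7 members every sh-IGF2BP3 library stood above every sh-NC library (16.7%, beside 8.43% of all genes), and in 0 below (beside 6.7%). CKS2 kept the largest change of the well-expressed members, 0.90 (SE 0.20), and UBE2C and BIRC5 had 0.62 (SE 0.19) and 0.56 (SE 0.17). INCENP was then at 0.20 and CDC20 at 0.28, from 0.56 and 0.63, while BUB3 was at 0.46, from 0.17. CENPE and ASPM were at -0.25 (SE 0.18) and -0.22 (SE 0.16), and their groups overlapped. In all, 33 members were above 0 and 9 below, 10 had changed sign, and the median was 0.14, beside 0.010 over all genes. The share of all genes above 0 in this fit is not given here. In this fit sh-NC 3 was the lowest library for 32 members, with a median deviation of -0.41, against 0.00 to 0.19 in the other libraries. Without sh-NC 3, 4 of the 8 kept an unadjusted p under 0.05, namely BIRC5, CKS2, PRC1 and UBE2C, and without sh-IGF2BP3 2 the same 4 did.

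**Figure D5:**
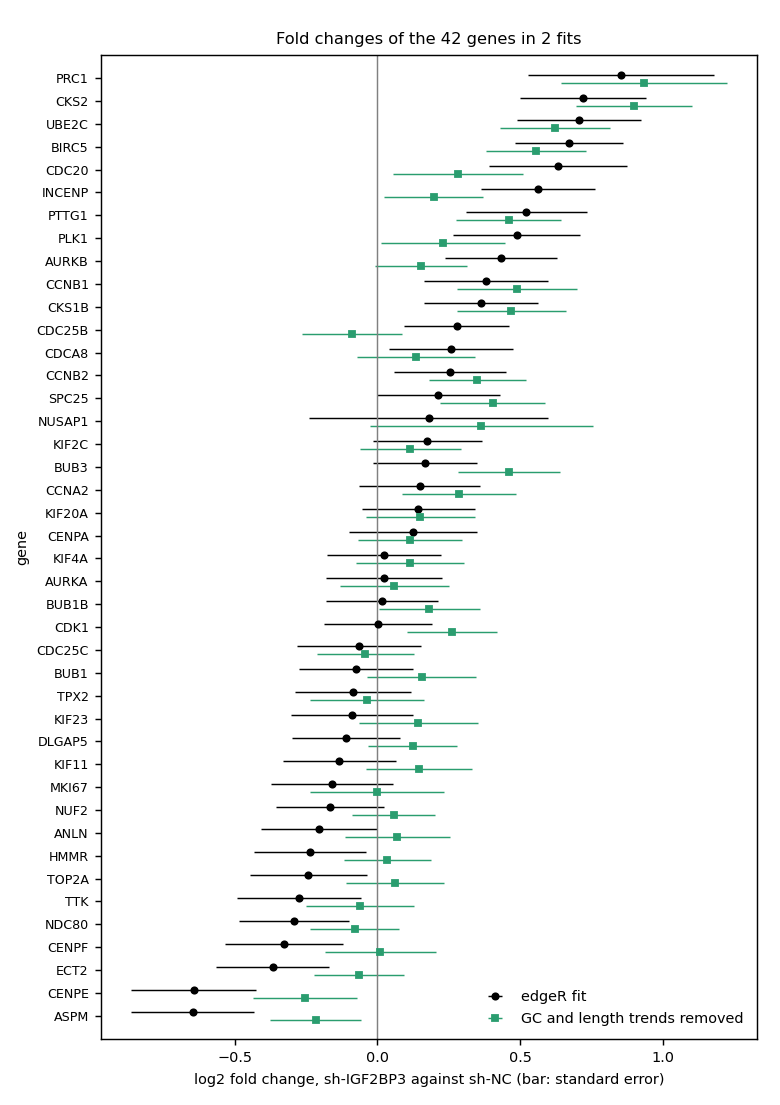
Log2 fold change with its standard error (x axis, sh-IGF2BP3 against sh-NC) of the 42 members (y axis), in the edgeR fit (black circles) and with the GC and length trends removed (green squares). CKS2, UBE2C, BIRC5 and PRC1 lie at 0.67 or above in the first fit and at 0.56 or above in the second, whereas CENPE and ASPM move from -0.64 and -0.65 to -0.25 and -0.22.

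Single libraries set many of these calls. In the fit without the trend removal, leaving out sh-NC 2, sh-NC 3 or sh-IGF2BP3 2 left 4 higher members at an unadjusted p under 0.05 in each case. Leaving out sh-NC 1 gave 12, and edgeR then called 7 members as DEGs, namely ASPM, BIRC5, CDC20, CKS2, INCENP, PLK1 and UBE2C. Over all genes that fit called 1739 higher and 985 lower. The shares of all genes in the fits with a library left out are not given here, so these counts are not read as particular to the members. Over the 25 fits run, alternatives included, BIRC5 and UBE2C were higher at an unadjusted p under 0.05 in 25 and CKS2 in 24, and PRC1 was in 21 of the 23 that tested it. CKS2 missed it without sh-IGF2BP3 2, the library in which it was highest. The fits share libraries and are not independent. The share of all genes that were higher in as many fits is not given here, so this tally is not read as particular to these members.

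The 115 other genes of the mitotic machinery were all tested. Of these, 29 (25.2%) were higher and 7 (6.09%) lower at an unadjusted p under 0.05, beside the 13.6% and 8.54% of all genes, and their median log2 fold change was 0.01. The 8 with the smallest p were all higher: CENPX (1.10) and CENPM (0.95) of the inner kinetochore, ANAPC15 (1.45), ANAPC2 (0.70) and UBE2S (0.93) of the APC/C and its E2 enzymes, the CDK1-inhibiting kinase PKMYT1 (1.15), the condensin subunit NCAPH2 (0.88) and the centromere factor OIP5 (1.91). With the trends removed CENPX was at 0.50, CENPM at 0.44, ANAPC15 at 1.42, ANAPC2 at 0.24, UBE2S at 0.66, PKMYT1 at 0.57, NCAPH2 at 0.40 and OIP5 at 1.92, and ANAPC2 no longer had an unadjusted p under 0.05. In the fit without this removal DESeq2 called 6 of these 8, leaving out ANAPC2 and OIP5. They were the only calls among the 111 with a DESeq2 adjusted p, beside 4.55% of its genes called higher and 1.23% called lower. No edgeR adjusted p was under 0.103. The whole list of 17 APC/C genes, UBE2S included, had 9 above 0 and 8 below, with a median of 0.0066. OIP5 had 11 to 19 counts in sh-NC and 12 to 69 in sh-IGF2BP3, and it overlaps NUSAP1 on the other strand. The 7 lower genes were the cohesin regulators PDS5A, PDS5B and SGO2, the kinetochore genes KNL1 and KNTC1, ARPP19, which restrains the phosphatase that opposes CDK1, and RBL2 of the DREAM repressor, at log2 fold changes between -0.70 and -0.41. Once GC and length trends were taken out, 18 were higher (15.7%, beside 6.86% of all genes) and 1 lower (CENPS, with 5 to 24 counts, 0.87% beside 3.59%), and none of the 7 kept an unadjusted p under 0.05. The list of 15 transcription factors and cofactors of mitosis genes (DREAM, MuvB and FOXM1) had 7 members above 0 and 8 below, with a median of -0.051. At an unadjusted p under 0.05, 2 of the 15 were higher and 1 lower, near the 13.6% and 8.54% of all genes. Within it, MYBL2 had a log2 fold change of 0.75 (SE 0.24, adjusted p = 0.122) and FOXM1 0.34 (SE 0.22, adjusted p = 0.381), and 0.31 and 0.15 with the trends removed. MYBL2 and FOXM1 were named after their values were seen.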

How the data were processed

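RNA from 3 sh-NC and 3 sh-IGF2BP3 libraries of HCT116 cells was sequenced after TruSeq library preparation. The authors deposited whole-number counts per Ensembl gene, not normalized, and FPKM values, which follow from those counts through each library's total and 1 fixed length per gene. The submitters' processing notes name CASAVA and GRCh38, and the aligner, the counting tool and the use of strand are not given in the sources used here. In R 4.3.3, genes were kept by filterByExpr, normalized by TMM and tested with edgeR 4.0.16 (glmQLFit, glmQLFTest, Benjamini-Hochberg adjustment over all genes tested). The thresholds, a fold change of 1.5 and an adjusted p of 0.05, follow the study's methods. DESeq2 1.42.0 on the counts and limma 3.58.1 on log2(FPKM + 1) were alternatives. For the GC and length trends, a spline (5 degrees of freedom) was run through each library's deviation in log2 CPM (prior count 2) and entered as an offset, with GC content known for 96.9% of tested genes. Intervals are 95% and, like SD and SE, cover the spread between these libraries. The tests were also run on simulated counts with less spread between replicates than was estimated here, and with a GC trend laid on a single library. That check therefore does not tell how many true changes these libraries could show.

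All 42 members are named, with full statistics for 18 chosen by role and the 6 further members with the smallest p, and of the other mitosis genes the 8 with the smallest p. The members, the lists and these rules were chosen with earlier results of these data known. Other normalizations and filters, a replicate block and each library left out in turn were also run.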

Additional observations from a re-analysis of the deposited data

How the results depend on the processing

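The number of DEGs over all genes, 0 higher and 0 lower in edgeR, depended on the tool and the filter: DESeq2 called 555 higher and 150 lower, edgeR with no filter on low counts 687 and 150 (CKS2 among them), edgeR with RLE normalization or with at least 10 counts in every library 1 higher, and limma on log2(FPKM + 1) 1 lower. With 1 library left out, DEGs ran from 0 to 1739 higher and from 0 to 985 lower, the most without sh-NC 1, and with the GC and length trends also removed from 0 to 729 higher and from 0 to 181 lower. These last fits were added after seeing the data. Members higher at an unadjusted p under 0.05 were 4 to 12 with a library left out (9 in the fit reported), 5 in limma on log2(FPKM + 0.1), and 4 to 14 with the trends also removed. Members lower were 1 to 4 with a library left out (2 in the fit reported), 4 in limma on log2(FPKM + 1) and on log2(FPKM + 0.1), 5 in limma with no filter, and 0 under the GC trend removal, the removal of both trends, that with the replicate block, and that with any library left out. The median log2 fold change of the members stayed within the spread between libraries (SD 0.20) except without sh-NC 1 and with the trends removed, where it was 0.29. It was small beside that spread and turned sign: with a library left out it ran from -0.079 (without sh-NC 3) to 0.14, in the 3 limma fits it was -0.053, -0.055 and -0.013, and with the trends removed and without sh-NC 3 it was -0.0085. In the other settings run, the counts of members stayed within 1.5 times those reported, and the cause of the changes was not tested.

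Fold changes near 0 turned sign. CDK1 was at -0.058 with upper-quartile normalization, -0.019 with at least 10 counts in every library, -0.0061 with the replicate block, -0.12 to 0.12 with a library left out, and -0.080, -0.083 and -0.080 in limma on log2(FPKM + 1), on log2(FPKM + 0.1) and with no filter. AURKA was at -0.033 with upper-quartile normalization, -0.13 to 0.17 with a library left out, and -0.057, -0.059 and -0.057 in the 3 limma fits. BUB1B was at -0.041 with upper-quartile normalization, -0.0033 with at least 10 counts, -0.13 to 0.13 with a library left out, and -0.061, -0.062 and -0.061 in limma. With a library left out CCNA2 ran from -0.060 to 0.29 and BUB1 from -0.24 to 0.024. Under the GC trend removal, the removal of both trends, and that with the replicate block, the values were 0.054, 0.061 and 0.056 for TOP2A, 0.14, 0.15 and 0.18 for BUB1, 0.16, 0.15 and 0.17 for KIF11, and -0.064, -0.090 and -0.11 for CDC25B. CENPF was at 0.010 and 0.013 in the latter 2 settings and MKI67 at 0.014 in the last.

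Same-numbered libraries of the 2 groups did not deviate together (Pearson's r of -0.28, -0.19 and -0.04 over all genes). The study describes its libraries as 3 pairs of control and knockdown cells. These correlations cannot show whether the numbers mark the pairs, since the libraries also differed in their GC trends. The fit reported took the groups as unpaired. The replicate block left 9 higher and 2 lower members and 0 DEGs, and with the GC and length trends removed 6 higher and 0 lower members. Precision is limited by 3 libraries a group, and PRC1 and NUSAP1 also by few counts.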
